A study of Mus musculus with 13 samples.

Results

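DNA glycosylases are the enzymes that find a damaged or misplaced base in DNA and cut it from its sugar, which starts base excision repair. The genes described are the 10 named Mutyh, Ogg1, Nthl1, Ung, Smug1, Tdg, Neil1, Neil2, Neil3 and Mpg, chosen by name and found by their Entrez identifiers, and all 10 are among the 23366 genes of the expression table. Their choice was made with earlier results of these data known. RNA of the pancreas was sequenced in 13 female mice, with 1 library per mouse. The level of a gene is its log2 RPKM (reads scaled by transcript length and by the size of the library), so that a difference of 1 is a doubling. Levels of different genes can be set against each other except near the lowest listed values, which depend on transcript length.

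The mice formed 3 groups. The young group held 4 mice of 13 weeks and the old group 5 mice of 55 weeks, neither of them given doxycycline. The old-OSKM group held 4 mice whose labels give an age of 58 weeks, made up of 55 weeks, 1 week of doxycycline in sucrose-sweetened drinking water and 2 weeks of recovery without it. All 3 groups were of the reprogrammable i4F-B line, which carries a cassette of Oct4, Sox2, Klf4 and Myc that doxycycline switches on and that sits within the Pparg gene. The paper calls the cassette ubiquitous but reports uneven expression between cell types. In the pancreas of a young mouse injected with doxycycline, SOX2 was broad in acinar cells but not found in most endocrine cells. Since no mouse lacking the cassette received doxycycline, the effect of the cassette, of the drug, of the sugar and of the 3 further weeks of age cannot be told apart.

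The repair pathway works in steps. A glycosylase leaves a site without a base, an endonuclease or the glycosylase itself nicks the strand, and a polymerase and a ligase fill and seal the gap. The family members divide the work by lesion: Ogg1 removes oxidised guanine lying opposite cytosine, Mutyh removes the adenine that was wrongly placed opposite oxidised guanine, Ung and Smug1 remove uracil, Tdg removes thymine or oxidised methylcytosine opposite guanine, Nthl1 and the Neil enzymes remove oxidised bases, and Mpg removes alkylated purines.

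Acinar genes were abundant in every library, as the tissue label requires. The 14 of them (digestive enzymes and their regulators, led by Ctrb1) summed to 14500 to 15400 RPKM in each mouse. The values were quantile normalized, and Ctrb1, Cela2a and Amy2a5 had the same level in all 13 mice (11.11 for Ctrb1), so the sum shows that these genes rank high and cannot show how much acinar RNA differed between mice. The acinar regulator Ptf1a, further down the ranks, lay between 1.74 (old-OSKM mouse 4) and 3.14. Old-OSKM mouse 4 stood apart, with a median Pearson r of 0.895 with the other mice over the 8410 genes of mean level above 0, against 0.960 to 0.982 in the other 12. Its 9 fibroblast and stellate genes summed to 75.2 RPKM, against a mean of 25.9 in old mice, and its 7 adipocyte genes to 14.2 RPKM, where the old mice held 3.19 to 5.55. Old-OSKM mouse 1 was also above the old mice in these lists, at 43.5 and 13.7 RPKM. It carried 18.2 RPKM of the 20 proliferation genes and 7.04 RPKM of the 7 T cell genes, where the old means were 8.56 and 1.68. In old-OSKM mice 2 and 3 the same 4 sums were 30.1 and 27.8 RPKM of fibroblast, 3.81 and 3.65 of adipocyte, 12.5 and 9.44 of proliferation and 1.19 and 1.65 of T cell genes. Results that involve the old-OSKM group were therefore also computed without its mice 1 and 4, and the main ones are given both ways. In pieces of whole tissue, fewer cells of a type and less RNA per cell cannot be told apart.

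**Figure D1:**
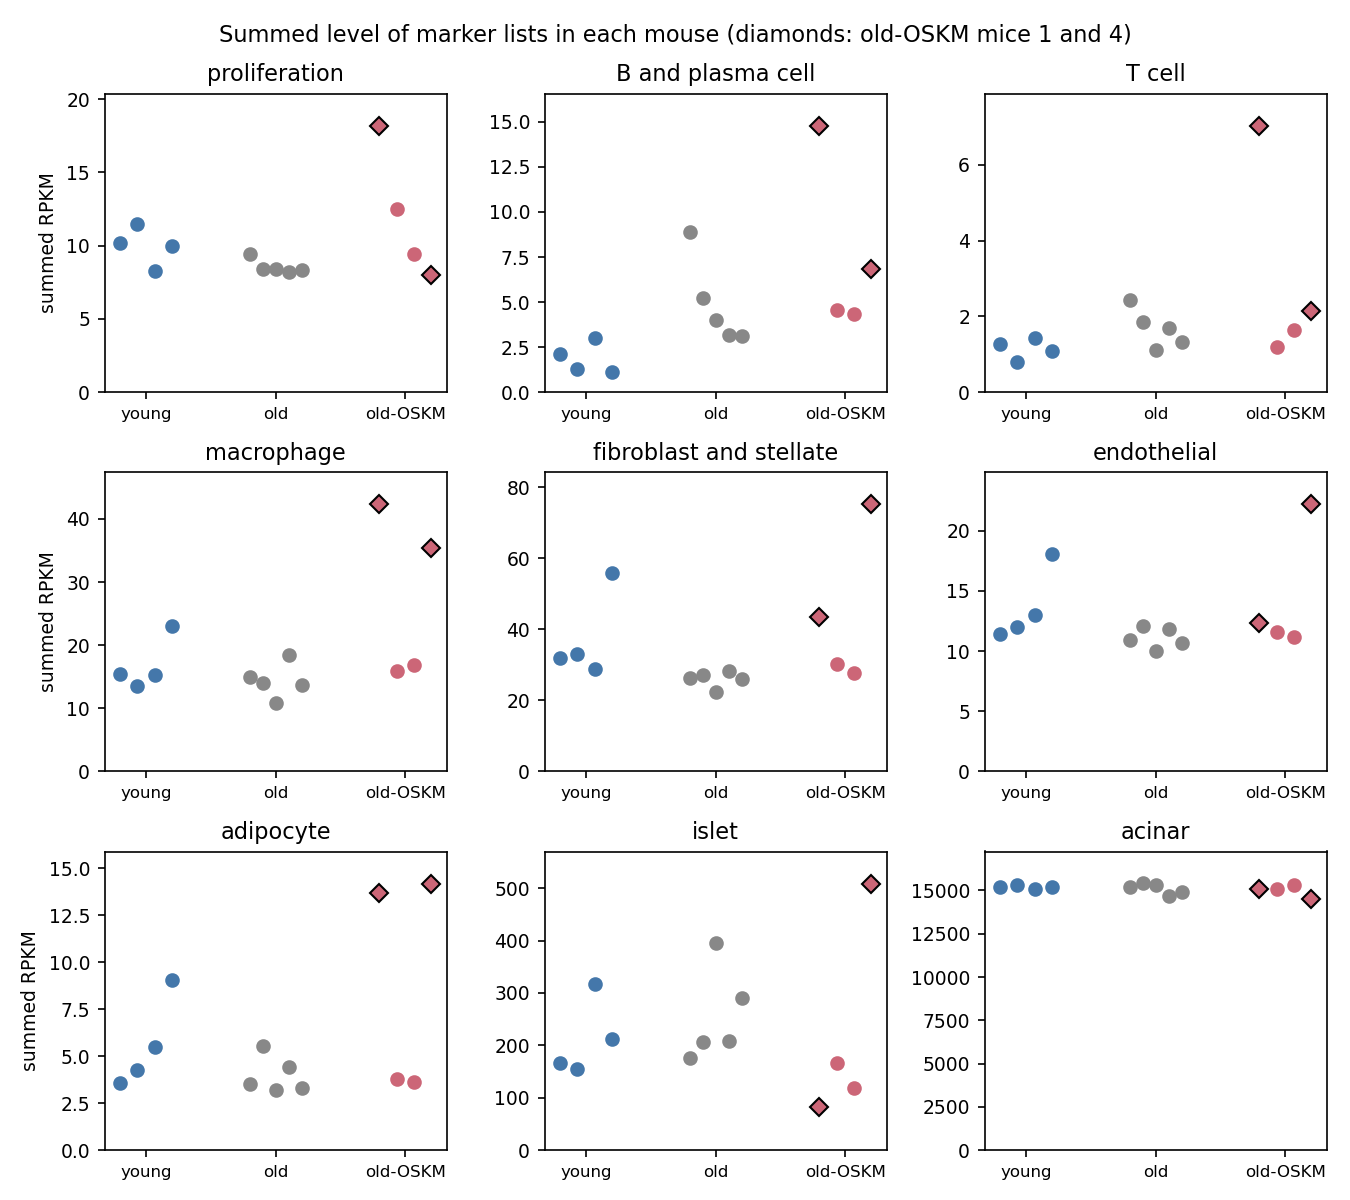
Summed RPKM (vertical axes, from 0) of 9 marker lists in each of the 13 mice, 1 point per mouse. Diamonds are old-OSKM mice 1 and 4, which lie highest for macrophage and adipocyte genes, while the acinar sums lie between 14500 and 15400 in all mice, a range held narrow by quantile normalization.

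The 10 genes spanned a wide range of levels, all of them low next to the acinar enzymes. Averaged over the 13 mice, the order was Mpg (0.19), Ogg1 (0.00), Tdg (-0.21), Ung (-0.27), Smug1 (-0.27), Neil1 (-1.17), Nthl1 (-1.31), Mutyh (-2.46), Neil2 (-2.53) and Neil3 (-3.51). Neighbours in this order differed by more than the joint spread of both genes at 3 places: from Smug1 to Neil1 (gap of 0.90 against a spread of 0.49), from Nthl1 to Mutyh (1.15 against 0.73) and from Neil2 to Neil3 (0.98 against 0.84). The first 5 genes thus form a tier near 1 RPKM, Neil1 and Nthl1 a tier near 0.4 RPKM, and Mutyh and Neil2 a tier below 0.2 RPKM. The last gap is not a measured distance, since 10 of the 13 values of Neil3 and 3 each of Mutyh and Neil2 lie at levels shared by nearly constant genes of like transcript length. The mean level of Mutyh lay above that of 36.1% of all genes in the table, that of Neil3 above 12.7% and that of Mpg above 66.7%.

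**Figure D2:**
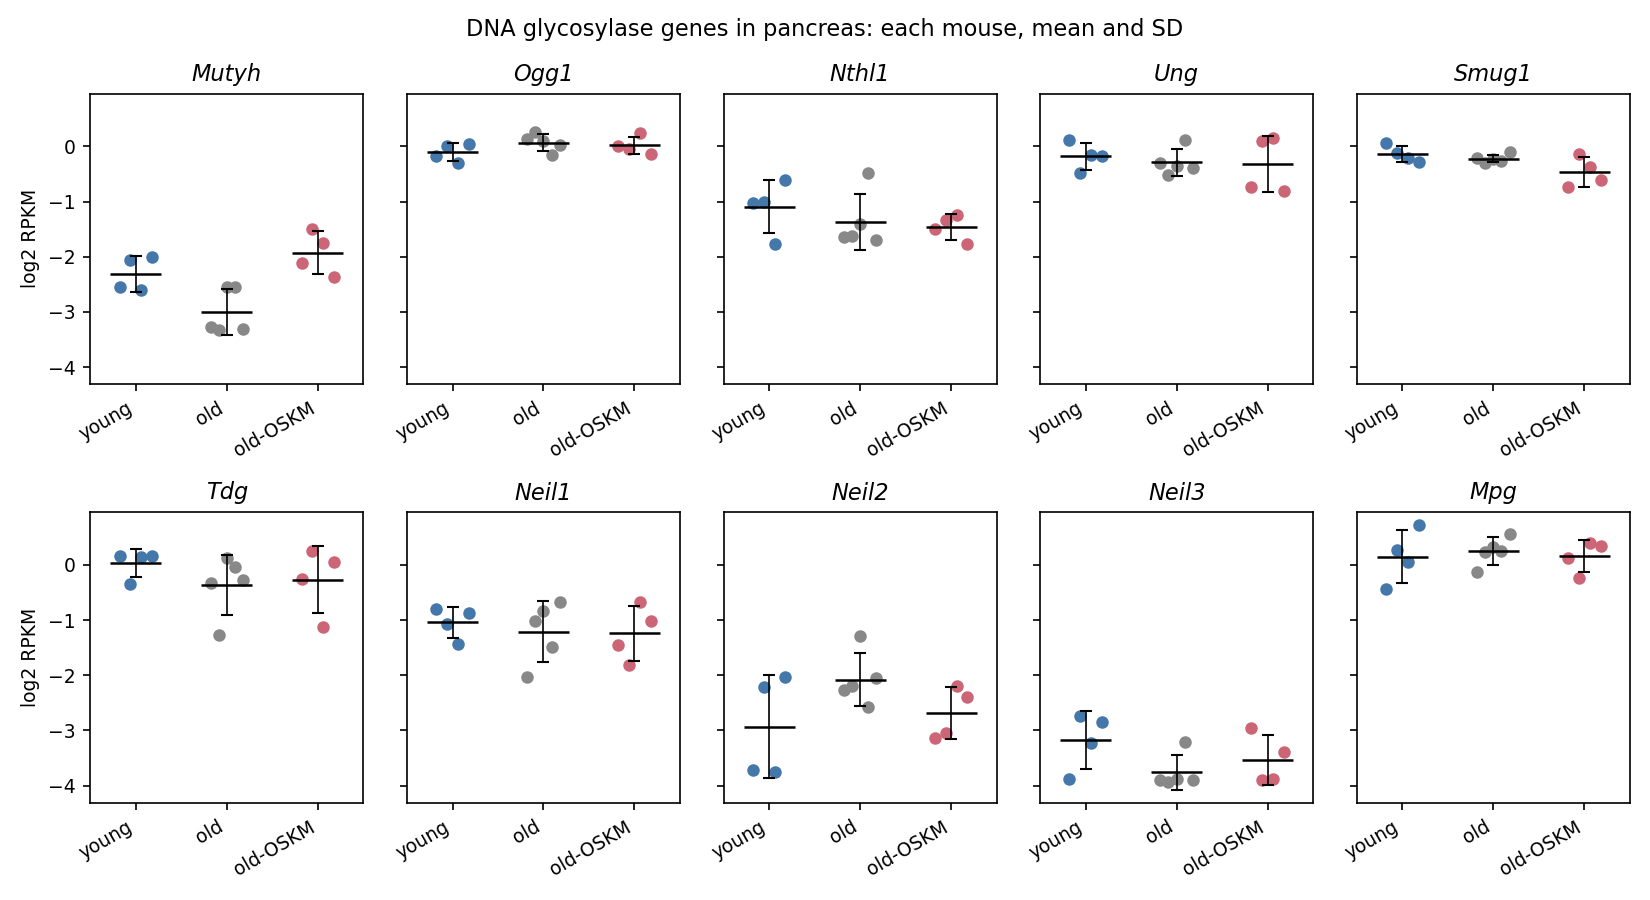
Log2 RPKM of each glycosylase gene in young, old and old-OSKM mice, 1 point per mouse, with horizontal bars at the group mean and error bars of 1 SD. The 4 old-OSKM mice lie between -2.37 and -1.49 for Mutyh and the 5 old mice between -3.33 and -2.55.

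Mutyh was the 1 member called in any comparison, higher in old-OSKM than in old mice. It belongs with Ogg1 and Nthl1 to the glycosylases built around a helix-hairpin-helix motif, and it lies on chromosome 4 (116807636 to 116819439, plus strand, GRCm38.p6, which is mm10; Entrez 70603). In old mice 1 to 5 its log2 RPKM was -3.28, -3.33, -2.55, -2.55 and -3.30. In young mice 1 to 4 it was -2.55, -2.06, -2.61 and -2.01, and in old-OSKM mice 1 to 4 it was -2.11, -1.49, -1.75 and -2.37. Every old-OSKM mouse lay above every old mouse, with a gap of less than 0.2 between the nearest values, whereas old and young mice overlapped: old mice 3 and 4 lay at the level of young mice 1 and 3, and the other 3 old mice lay below all young mice. Old-OSKM mice overlapped young mice as well.

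Mean Mutyh levels with their SD came to -2.31 ± 0.32 for the 4 young mice, to -3.0 ± 0.41 for the 5 old mice and to -1.93 ± 0.39 for the 4 old-OSKM mice. The old-OSKM minus old difference was 1.08 ± 0.24 (SE), 2.11-fold, with a raw p of 0.00084 in a limma fit of all genes and p = 0.016 in a two-sided exact permutation test, the smallest value that 5 against 4 mice allow. The Benjamini-Hochberg adjusted p over all genes was 0.55, so the difference does not pass a correction for the number of genes. The old minus young difference was -0.69 ± 0.24 (SE), with a raw p of 0.014, an adjusted p of 0.69 and an exact permutation p of 0.079. The old-OSKM minus young difference was 0.38 ± 0.25 (SE), with an adjusted p of 0.71 and an exact permutation p of 0.20. The 3 comparisons share mice, so a low value in the old group enters both comparisons with it.

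Calls follow the study's criteria, more than a 1.5-fold difference together with a raw p below 0.01. Between old-OSKM and old mice this called 1 of 10 glycosylases, beside 0.753% of all genes (176 of 23366) in either direction and 0.582% (136 genes) in the direction of Mutyh. The same gene was the 1 of 10 whose values did not overlap between these groups, beside 1.73% of all genes. Since the members were chosen with earlier results of these data known, these shares describe the 10 genes and are no test of an excess. Between old and young mice 0 of 10 were called, beside 0.886% (207 genes), and 0 of 10 did not overlap, beside 2.71%. Between old-OSKM and young mice 0 of 10 were called, beside 0.625% (146 genes), and 0 of 10 did not overlap, beside 1.90%. At a Benjamini-Hochberg adjusted p under 0.05 with limma, 0 of 10 passed in each comparison, beside 0.0813% of all genes for old against young, 0.00428% (1 gene) for old-OSKM against old and 0.0428% for old-OSKM against young. The median difference of the 10 was -0.14 in old minus young, -0.04 in old-OSKM minus old and -0.17 in old-OSKM minus young, beside 0.00, -0.04 and -0.04 for all genes. At a raw p under 0.05, 1 of 10 members passed in each comparison, beside 5.52%, 8.07% and 5.07% of all genes in the same order. These were Mutyh in both comparisons with old mice, and Smug1 between old-OSKM and young mice, where the difference was -0.33 ± 0.12 (SE), with a raw p of 0.019 and an exact permutation p of 0.086. Without old-OSKM mice 1 and 4 that difference was -0.11, and it no longer had a raw p under 0.05 without either of them (-0.23 and -0.28) or without young mouse 1 (-0.26).

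**Figure D3:**
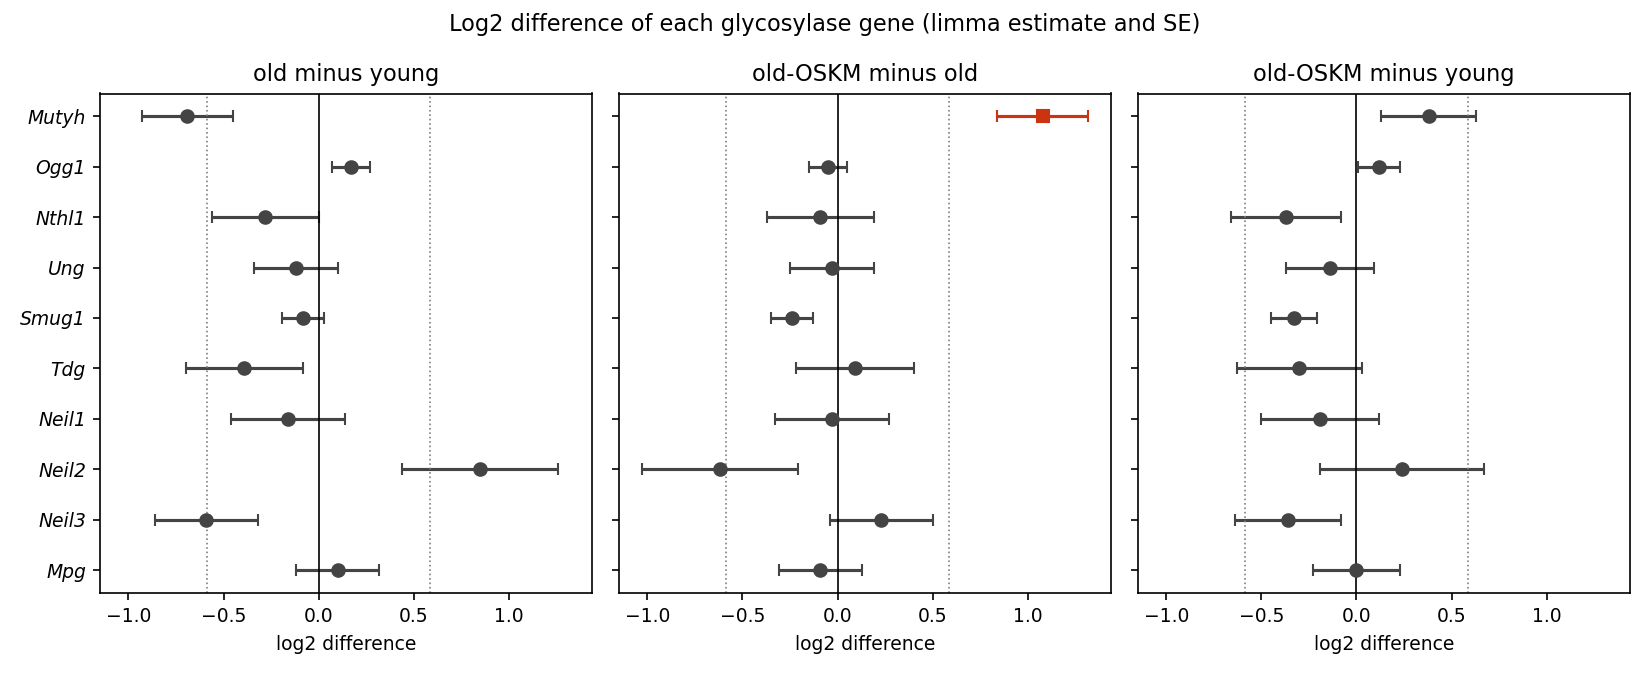
Log2 difference of each glycosylase gene (horizontal axes) in the 3 comparisons, with the limma estimate and its SE. The square is Mutyh in old-OSKM minus old (1.08), the 1 called difference, and dotted lines mark a 1.5-fold change.

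The old-OSKM minus old difference in Mutyh was also computed without the mice that stood apart. Without old-OSKM mouse 4 it was 1.22, and without mice 1 and 4 together, a setting chosen after seeing the data that leaves 2 old-OSKM mice, it was 1.38, called in both cases. The highest Mutyh values were those of mice 2 and 3. Leaving out any other single mouse gave between 0.93 and 1.19, again called each time. All old-OSKM mice carry sample numbers of the first of 2 runs of numbers in the labels, while young mice 3 and 4 and old mouse 5 belong to the second. Within the first run old-OSKM minus old was 1.00, which was called, and old minus young was -0.62, which was not and rests on 2 young mice. The lower level in old than in young mice passed the call rule without old mouse 3 (-0.80) or without old mouse 4 (-0.81), the 2 old mice with the higher values, and under no other removal of 1 mouse.

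The lowest Mutyh values lie where the table lists many genes at nearly constant levels. In 3695 genes, 15.8% of the table, the mean level was below -1 and all 13 mice lay within 0.3 of each other. The 3287 of these with a known transcript length were listed at levels that fell with length (Pearson r = -0.81 across genes with log2 length, a description of the table, in which genes are not independent replicates). The 558 such genes with transcripts within 20% of the 1654 bases of Mutyh had a median of -3.53, and the middle 90% of them lay between -3.77 and -3.09. The 3 lowest old values of Mutyh (-3.28, -3.30 and -3.33) lie in that range and within 0.1 of each other, and none of the other 10 mice does. The counts behind each value are not known, so how far these 3 values lie below the other 2 old mice is not a measured depth. When all values below -2.5 were raised to -2.5, a setting chosen after seeing the data, old-OSKM minus old was 0.57 and not called, and old minus young was -0.23. All 5 old values of Mutyh lie below -2.5, the 2 at -2.55 outside the range of the nearly level genes, so this setting makes the old group constant and a smaller difference was fixed by its construction. On the scale log2(RPKM + 1) the difference from old mice was 0.17 and not called, and on log2(RPKM + 0.1) it was 0.69 and called.

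**Figure D4:**
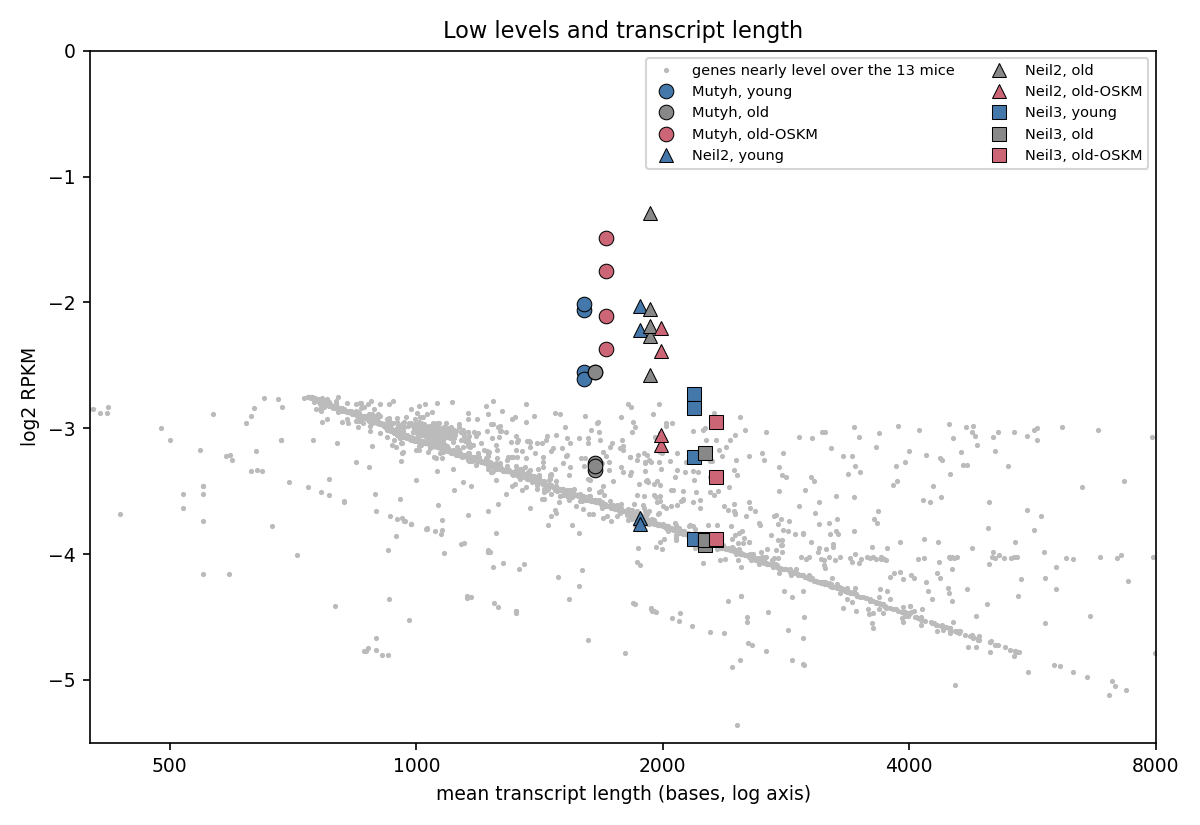
Level (log2 RPKM) against mean transcript length in bases (log axis) for 3287 low genes that are nearly level over the 13 mice (grey), with the 13 values of Mutyh, Neil2 and Neil3. Symbols of the 3 groups are set slightly apart to the left and right of the true length, and 3 old values of Mutyh and 10 values of Neil3 lie in the range of grey points of like length.

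Mutyh begins next to Toe1, a gene of RNA 3′ end trimming that is read in the opposite direction, with 34 bases between the annotated spans. RefSeq promoter windows (GRCm38.p6) were found for 9 of the 10 members, and Neil2 had no entry. These windows give start sites at 116807559 for Toe1 and at 116807734 for Mutyh. The 174 bases between these sites, chr4:116807560-116807733 on the plus strand, are shown because the levels of the genes behaved differently. The annotated spans reach further, to 116807601 for Toe1 and from 116807636 for Mutyh. Only the 34 bases between the spans lie outside both genes, and all marked matches lie inside a span. Capitals mark GGGCGG (2 matches), CCAAT (1 match, on the other strand) and GGGNGTGG (1 match, on the other strand).
Mutyh to Toe1 interval: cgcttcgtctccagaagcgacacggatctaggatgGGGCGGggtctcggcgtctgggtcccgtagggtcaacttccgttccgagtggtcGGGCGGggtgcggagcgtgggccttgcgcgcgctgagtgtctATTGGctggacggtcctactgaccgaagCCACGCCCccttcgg
Of all 32851 promoter windows of 300 bases, 35.7% hold GGGCGG, 37.4% hold CCAAT and 17.6% hold GGGNGTGG on either strand. CACGTG, the core of sites bound by Myc, was not in the windows of Mutyh, and the octamer ATGCAAAT was in no member's window. They are held by 7.15% and 1.74% of all windows, and such matches describe letters, not binding. The interval holds 21 CG pairs, and the whole window at this start holds 31, beside a median of 7 over all windows. A second start of Mutyh further into the gene, with its window at chr4:116814069-116814368, holds 2, and it is the 1 member window with CATTGT, a core of sites bound by Sox proteins that 12.6% of all windows hold.

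Toe1 did not share the difference of Mutyh. Its old-OSKM minus old difference was 0.02 ± 0.17 (SE) and its old minus young difference -0.01 ± 0.17 (SE), with adjusted p of 0.95 and 1.0. On the other side, Hpdl ends 467 bases beyond Mutyh on the opposite strand, and its old-OSKM minus old difference was -0.17 ± 0.36 (SE). The library kit did not mark the strand, so reads of overlapping genes cannot be told apart, but the annotated spans of Mutyh and its neighbours do not overlap.

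The genes most like and most unlike Mutyh over the 13 mice were looked for among 5660 genes with a mean above -3 and an SD of at least 0.3. The highest Pearson r were those of Tmem53 (0.81), Popdc2 (0.80), Timeless (0.80), Tslp (0.79) and Col23a1 (0.79), and the lowest were those of 2610028H24Rik (-0.82), Txk (-0.78) and Snora81 (-0.78). These values describe the mice of all 3 groups together and were picked as extremes, so they carry no test. Timeless, which works at the replication fork, lay between -2.28 and -1.52 in old mice, between -1.86 and -0.92 in young mice and between -1.51 and -0.77 in old-OSKM mice. Popdc2 lay within 0.1 of -3.52 in all 5 old mice, which is again a level shared with genes that hardly vary. Low values of Tslp were nearly tied as well, at -2.86 in old mice 1, 3 and 4, -2.88 in old mouse 5 and -2.91 in young mouse 3. Old mouse 2 was at -2.30.

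Ogg1 and Nthl1, the other helix-hairpin-helix members, were not called. Ogg1, the partner of Mutyh in the handling of oxidised guanine, was the steadiest member, between -0.30 and 0.26 in all 13 mice. Its group means were -0.10 ± 0.16, 0.07 ± 0.15 and 0.02 ± 0.16 (SD) in young, old and old-OSKM mice. Old-OSKM mice differed from old mice by -0.05 ± 0.10 (SE). Nthl1 lay between -1.77 and -0.48, with means of -1.09 ± 0.48, -1.37 ± 0.51 and -1.46 ± 0.23 (SD) in young, old and old-OSKM mice. Old mouse 4 had its highest value, and the groups overlapped. The 3′ end of Ogg1 overlaps Camk1 by 754 bases, and Camk1 was the more abundant of the pair (1.45 to 1.75), so reads in the overlap are a limit on the Ogg1 value. Nthl1 starts 4 bases from the start of Tsc2, which is read the other way and was -0.17 ± 0.09 (SE) in old-OSKM minus old.

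Ung, Smug1 and Tdg share the fold of the uracil DNA glycosylases. Ung, which removes uracil and acts during replication, lay between -0.52 and 0.11 in old mice, between -0.48 and 0.11 in young mice and at -0.73, 0.10, 0.15 and -0.80 in old-OSKM mice 1 to 4. The old-OSKM values thus fell into a high and a low pair, the low pair being mice 1 and 4, which stood apart on their marker genes. The difference of old-OSKM from old mice was -0.03 ± 0.22 (SE) with all mice and 0.42 without mice 1 and 4, called in neither case, and the part of cell composition in it was not tested. Ung and Alkbh2, a demethylase that repairs alkylated bases directly, overlap by 868 bases at their starts. Alkbh2 was also lowest among old-OSKM mice in mice 1 and 4, at -1.48 in both, against -0.85 and -0.75 in mice 2 and 3.

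Smug1, a backup uracil glycosylase, was -0.21, -0.30, -0.22, -0.26 and -0.10 in old mice 1 to 5. It was 0.06, -0.11, -0.21 and -0.28 in young mice 1 to 4 and -0.74, -0.13, -0.38 and -0.61 in old-OSKM mice 1 to 4. Old mice formed the tightest group, and mice 1, 3 and 4 of the old-OSKM group lay below all old and young mice while mouse 2 lay among them. The old-OSKM minus old difference was -0.24 ± 0.11 (SE), with an adjusted p of 0.55 and an exact permutation p of 0.13, and it was -0.03 without old-OSKM mice 1 and 4. No annotated gene lies within 1000 bases of Smug1.

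Tdg, which completes active DNA demethylation, was 0.16, -0.35, 0.15 and 0.17 in young mice 1 to 4 and -0.33, -1.27, 0.13, -0.04 and -0.27 in old mice 1 to 5. In old-OSKM mice 1 to 4 it was -0.26, 0.25, -1.13 and 0.06. Old mouse 2 and old-OSKM mouse 3 were far below the rest of their groups, and the other 11 mice lay between -0.35 and 0.25. The differences were -0.39 ± 0.31 (SE) for old minus young and 0.09 ± 0.31 (SE) for old-OSKM minus old. The end of Tdg overlaps that of Glt8d2, a glycosyltransferase gene on the opposite strand, by 369 bases. Glt8d2 was -2.18, -2.16, -3.18, -2.44 and -2.22 in old mice 1 to 5 against -1.22, -1.44, -1.28 and -0.51 in young mice 1 to 4. It was called lower in old mice, with a difference of -1.33 ± 0.23 (SE, adjusted p = 0.079), but not on the scale log2(RPKM + 1) or at an adjusted p under 0.05. Its old-OSKM minus old difference was 0.63 ± 0.23 (SE) and 0.67 without old-OSKM mice 1 and 4, called in neither case. Old and young values of Glt8d2 did not overlap, those of Tdg did, and old mouse 2, lowest for Tdg, was highest for Glt8d2 among old mice.

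The Neil enzymes, which work on oxidised bases also in single-stranded or opened DNA, included the least abundant members. Neil1 lay between -1.43 and -0.80 in young, -2.03 and -0.67 in old and -1.81 and -0.68 in old-OSKM mice, with group means from -1.24 to -1.04. Neil2 was -3.71, -2.22, -3.76 and -2.03 in young mice 1 to 4 and -2.27, -2.19, -1.29, -2.58 and -2.05 in old mice 1 to 5. In old-OSKM mice 1 to 4 it was -3.13, -3.05, -2.20 and -2.39. Young mice 1 and 3 lay far below young mice 2 and 4, which were at the level of the old mice. The old minus young difference was 0.85 ± 0.41 (SE), opposite in sign to that of Mutyh, with an exact permutation p of 0.19, and the old-OSKM minus old difference was -0.62 ± 0.41 (SE), with an exact permutation p of 0.11, and -0.55 without old-OSKM mice 1 and 4. The low young values lie in the range of the 523 nearly level genes of like transcript length (middle 90% from -3.92 to -3.09), so the difference from the old group carries the same limit as that of Mutyh.

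Neil3, known from dividing cells and from the repair of crosslinked DNA, was close to the lowest listed level in most mice. It was -3.89, -3.93, -3.88, -3.20 and -3.89 in old mice 1 to 5, -3.88, -2.73, -3.23 and -2.84 in young mice 1 to 4 and -2.95, -3.89, -3.88 and -3.39 in old-OSKM mice 1 to 4. In 7 mice (1 young, 4 old and 2 old-OSKM) the values lay within 0.1 of the lowest, and 10 of the 13 lay in the range that covers 90% of nearly level genes of like length. The old minus young difference was -0.59 ± 0.27 (SE), with an adjusted p of 0.90 and an exact permutation p of 0.095. Without young mouse 1, the young mouse at the lowest level, the difference was -0.82 and was called. Since all 13 values lie below -2.5, raising low values to -2.5 says nothing of Neil3. Old-OSKM mouse 1, with the largest sum of proliferation genes, also had the highest Neil3 of its group, and without old-OSKM mice 1 and 4 the difference between old-OSKM and old mice turned from 0.23 to -0.13.

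Mpg, which removes alkylated purines and has a fold of its own, had the highest mean level of the members and lay between -0.44 and 0.72. Its means were 0.15 ± 0.48, 0.25 ± 0.25 and 0.16 ± 0.29 (SD) in young, old and old-OSKM mice, and all its differences were 0.10 or smaller in size. Mpg overlaps Nprl3 by 740 bases at their ends, so reads in the overlap are a limit on the Mpg value. The lead of Mpg over Ogg1 in mean level (0.19) was smaller than the joint spread of both genes (0.36). Mbd4, a thymine glycosylase outside the 10 that acts at methylated CG sites, had differences of -0.06 ± 0.17 (SE) in old minus young and 0.04 ± 0.17 (SE) in old-OSKM minus old.

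Shared position was a feature of 3 members. Mutyh, Ung and Nthl1 each start within 1000 bases of a protein-coding gene on the opposite strand, as do 10.5% of the 20946 protein-coding genes with a strand in the annotation. Promoter windows of the members were rich in CG pairs, with a median of 19.5 beside 7 over all windows. GGGCGG was found in windows of 7 members and CCAAT in windows of 6. Neighbours other than Glt8d2 were not called in any comparison.

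The later steps of base excision repair were followed in 30 genes. Of these (endonuclease, polymerases, ligases, clamp and clamp loader, and the end-processing and poly-ADP-ribose enzymes), 0 were called with limma in any comparison, beside 0.886% of all genes for old against young mice, 0.753% for old-OSKM against old mice and 0.625% for old-OSKM against young mice. Between old and young mice 1 had a raw p under 0.05, lower in old mice, beside 2.52% of all genes lower and 3% higher, and the median difference was -0.05 beside 0.00 for all genes. Between old-OSKM and old mice 2 had a raw p under 0.05, both higher, beside 3.98% of all genes higher and 4.08% lower, and the median was 0.02 beside -0.04. The 2 were Rfc5 of the clamp loader (0.34 ± 0.14 SE) and Pcna, the sliding clamp (0.21 ± 0.08 SE), both with an adjusted p of 0.55, and Rfc5 was also the gene lower in old mice (-0.30 ± 0.14 SE). Between old-OSKM and young mice 1 had a raw p under 0.05, Pcna, higher in old-OSKM mice, beside 2.91% of all genes higher and 2.16% lower. Pcna was 1.93, 1.85, 1.80 and 1.52 in old-OSKM mice 1 to 4, the first 3 of them above all old mice (1.52 to 1.66). Without old-OSKM mouse 1 the count in old-OSKM minus old was 0, without mouse 4 it was 5, and without both it was 4. Without old-OSKM mouse 1 the count in old minus young was also 0. Lig1 (0.34 ± 0.16 SE) and Hmgb1 (0.21 ± 0.11 SE) had the next smallest raw p in old-OSKM minus old, and Aptx, Pole3 and Parg differed by 0.15 or less in size between old and young mice.

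Genes that clean the nucleotide pool or reverse damage directly were not called either. Of 9 such genes, with a median difference of 0.09 between old and young mice, 1 had a raw p under 0.05 in that comparison, beside 5.52% of all genes. It was Nudt1, which destroys oxidised guanine nucleotides before they enter DNA. Nudt1 was -0.85, -0.45, -0.84, -0.69 and -0.70 in old mice 1 to 5 and -1.53, -0.99, -1.38 and -0.95 in young mice 1 to 4. All old mice thus lay above all young mice, and the difference was 0.51 ± 0.20 (SE, adjusted p = 0.81), opposite in sign to that of Mutyh. Between old-OSKM and old mice 0 of the 9 had a raw p under 0.05 with limma, beside 8.07% of all genes, and the median was -0.16 beside -0.04 for all genes. Samhd1, which destroys deoxynucleotides, had the smallest raw p there (0.34 ± 0.19 SE, adjusted p = 0.61), with 2.06 in old-OSKM mouse 1 and 0.98 to 1.11 in the other 3, and the difference was 0.05 without mice 1 and 4. Between old-OSKM and young mice Samhd1 was the 1 of 9 with a raw p under 0.05 (0.44 ± 0.20 SE, adjusted p = 0.71), beside 5.07% of all genes, and that difference was 0.18 without old-OSKM mouse 1 and 0.15 without mice 1 and 4.

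Among 10 genes whose products make substrates for glycosylases, 1 was called in old minus young, beside 0.886% of all genes, and the same 1 in old-OSKM minus young, beside 0.625%. The gene was Tet1. Tet1, which oxidises methylcytosine to forms that Tdg removes, was -2.12, -1.90, -1.67, -2.05 and -1.98 in old mice 1 to 5 and -1.19, -1.03, -1.61 and -1.22 in young mice 1 to 4. All old mice lay below all young mice. The difference was -0.68 ± 0.12 (SE, adjusted p = 0.094) and was called without any 1 mouse, but on the scales log2(RPKM + 0.1) and log2(RPKM + 1) it was -0.52 and -0.17 and not called. Old-OSKM mice, at -2.04, -1.73, -1.75 and -1.87, differed by 0.09 ± 0.12 (SE) from old mice and by -0.59 ± 0.13 (SE) from young mice (adjusted p = 0.40), a call that was lost without old-OSKM mouse 1 (-0.53) or 4 (-0.58) or without young mouse 1 (-0.56), 2 (-0.51) or 4 (-0.57). Without old-OSKM mice 1 and 4 these differences were 0.20 and -0.48, called in neither case. The median of the 10 was -0.10 in old minus young and 0.08 in old-OSKM minus old, beside 0.00 and -0.04 for all genes. Apobec1, a cytosine deaminase, was 0.32, -0.78, -0.62 and 0.10 in old-OSKM mice 1 to 4 and between -1.24 and -0.37 in old mice, so that mice 1 and 4 lay above all old mice and mice 2 and 3 among them. The difference was 0.70 ± 0.25 (SE, adjusted p = 0.55) and was not called, and it was 0.51 without mouse 1, 0.58 without mouse 4 and 0.24 without both.

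Most of the 20 proliferation genes differed in the same directions as Mutyh, 17 of them lower in old than in young mice and 18 higher in old-OSKM than in old mice, beside 10644 and 8622 of the 23366 genes. Marker lists of other cells differed in sign. Fibroblast (9 of 9 lower, then 8 of 9 higher), macrophage (7 of 8, then 8 of 8), endothelial (6 of 7, then 7 of 7) and adipocyte genes (7 of 7, then 7 of 7) had the signs of Mutyh. B and plasma cell genes (8 of 8) and T cell genes (7 of 7) were higher in both comparisons. Islet genes were higher (7 of 10) and then lower (10 of 10). Their sums in old-OSKM mice 1 to 4 were 81.8, 167, 119 and 509 RPKM, against 175 to 396 RPKM in old mice. Mouse 4 thus lay above all old mice. Duct genes were lower (7 of 8) and then 4 higher and 4 lower. Acinar genes were counted with 7 of each sign and then with 4 higher and 9 lower. In these counts the signs of Ctrb1, Cela2a and Amy2a5, which had the same level in all 13 mice, carry no meaning. Of the 20 proliferation genes, 2 had a raw p under 0.05 between old and young mice, both lower in old mice (Mcm5, -0.74 ± 0.30 SE, and Mcm6, -0.62 ± 0.23 SE), beside 2.52% of all genes lower. Neither was called. So did 4 of 9 fibroblast genes, all lower and 2 of them called, and 2 of 8 B and plasma cell genes, both higher and 1 of them called. All genes were called at 0.886%. The endothelial list had 1 lower, the islet list 1 higher and the acinar list 1 of each. The duct, T cell, macrophage and adipocyte lists had 0. Between old-OSKM and old mice 6 had a raw p under 0.05, all higher, beside 3.98% of all genes higher, as did 6 of 8 macrophage, 4 of 7 adipocyte and 4 of 9 fibroblast genes and 0 genes of the endothelial, T cell, B and plasma cell, islet, duct and acinar lists. Of these, 2 fibroblast, 1 adipocyte and 0 macrophage genes were called, beside 0.753% of all genes. Without old-OSKM mice 1 and 4 the macrophage, adipocyte and fibroblast counts at a raw p under 0.05 were 0, and the proliferation count was 5. Without mouse 1 alone these 4 counts were 3, 1, 3 and 2, and without mouse 4 alone 2, 1, 3 and 9. The islet count was 6 without mouse 4 and 1 without both, and the endothelial count was 1 without mouse 1. The proliferation medians were -0.19 and 0.59, beside 0.00 and -0.04 for all genes. In old-OSKM minus old the medians of adipocyte (1.32), macrophage (0.72), T cell (0.62) and fibroblast genes (0.59) were as high or higher. In old minus young those of adipocyte (-0.36), fibroblast (-0.32) and endothelial genes (-0.25) were lower than the proliferation median. The 6 were the helicase subunits Mcm3, Mcm5 and Mcm6, the nucleotide enzymes Tk1 and Tyms, and Bub1 of the mitotic checkpoint, with Mcm5 the 1 called (1.02 ± 0.30 SE, adjusted p = 0.55). That call was lost when old-OSKM mouse 1 (0.74), old-OSKM mouse 2 (0.95) or old mouse 3 (0.92), 4 (1.00) or 5 (0.99) was left out. Between old-OSKM and young mice Tk1 was called (0.80 ± 0.24 SE, adjusted p = 0.71), a call lost without young mouse 1 (0.80), 3 (0.70) or 4 (0.84) or old-OSKM mouse 1 (0.76) or 4 (0.60). Mcm5 was -0.20, -0.83, -1.40 and -1.69 in old-OSKM mice 1 to 4, and -1.48, -1.99, -2.45, -2.13 and -2.17 in old mice 1 to 5. The summed level of the 20 genes, led by Rrm2, was 18.2, 12.5, 9.44 and 7.99 RPKM in old-OSKM mice 1 to 4 and 8.17 to 9.42 RPKM in old mice. The sum of mouse 4 was low in Rrm2 itself, at -1.78 against 0.16 to 0.36 in old mice, while its Tk1 (0.51) lay above that of all old mice. The part of dividing cells in the Mutyh difference was not tested.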

How the data were processed

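RNA of the pancreas, depleted of ribosomal RNA and sequenced with paired ends, was aligned by the authors to mm10 with STAR 2.3.0e. They estimated RPKM per isoform with Casper, added the isoforms of each Entrez gene together, and quantile normalized the log2 values. The deposited log2 values were used unchanged, without a pseudocount or filter, for all 23366 genes, of which 23273 have a symbol in RefSeq (GRCm38.p6). A further correction by read totals is not in the values used here. No counts or read totals were used. Beyond the single figure of reads per sample in the paper, the depth behind single values is not known.

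All genes were fitted with limma 3.58.1 in R 4.3.3, with 3 groups and no covariate, and Benjamini-Hochberg adjustment over all genes. The fit was tested on simulated data. Single members were also compared by two-sided exact permutation tests. Transcript lengths were those of GENCODE transcripts linked to RefSeq. Named genes were all members, Mbd4, neighbours within 1000 bases, genes like Mutyh, and from each pathway list those called and the 4 of smallest raw p in old minus young and in old-OSKM minus old. Not all are discussed, and 1 gene is not reported here. The members and lists were chosen with earlier results of these data known. The description of low values was added after seeing the data.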

Additional observations from a re-analysis of the deposited data

Results flagged for a closer look

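In 3 of the 30 sets made of 1 member in 1 group of mice, the most extreme mouse lay far from the rest for a group of that size. Chance gives about 1 in 20 such sets if the values are normally distributed. That rate does not hold for Neil3 in old mice, where most values were nearly tied close to the lowest level. Nthl1 in old mice was -0.48 in mouse 4, where the nearest old mouse was -1.41. Neil3 in old mice was -3.20 in mouse 4, where the other 4 lay between -3.93 and -3.88, close to the lowest level listed for the gene. Tdg in young mice was -0.35 in mouse 2, where the nearest was 0.15. In 2 of these sets the mouse was old mouse 4. No explanation was tested.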

How the results depend on the processing

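Of 753 log2 differences of single glycosylases listed for other settings, 717 kept their direction or came to 0. These include the main differences listed again under the adjusted p rule, which could not change. Some settings could hardly change a difference, such as repeated quantile normalization or leaving out a mouse of the group outside the comparison. That count is therefore no measure of stability. In old-OSKM minus old, Mutyh kept its direction in every setting that included it. The glycosylases called there came to 0 with genes of mean above 0 (which leave Mutyh out), with log2(RPKM + 1), with an adjusted p under 0.05, and with values raised to -2.5, and to 1 otherwise. In old minus young, 0 to 1 were called when single mice were left out.

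Genes called, in the order old against young, old-OSKM against old, old-OSKM against young, came to 44, 35 and 19 with means above 0, 16, 2 and 8 with log2(RPKM + 1), 116, 77 and 76 with log2(RPKM + 0.1), 19, 1 and 10 by adjusted p, and 127, 68 and 59 with values raised to -2.5. Without old-OSKM mice 1 and 4, chosen after seeing the data like the raising of low values, old-OSKM minus old called 80. Leaving out single mice gave 94 to 338 in old-OSKM minus old and 121 to 253 in old-OSKM minus young. The share of calls that were higher in old-OSKM minus old was 77.3%, 94.3% with means above 0, 48.6% without old-OSKM mouse 4 and 38.8% without mice 1 and 4.

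Small differences that changed sign were never called. In old-OSKM minus old without mice 1 and 4 they were 0.04 for Ogg1, 0.42 for Ung, 0.08 for Nthl1, -0.13 for Neil3 and -0.08 for Tdg. Ung was 0.00 with log2(RPKM + 1), and Neil1 was 0.01 with the run of sample numbers as covariate and 0.11 in the first run alone. In old-OSKM minus young, Ung was 0.30 and Mpg -0.07 without mice 1 and 4, Mpg was -0.01 with log2(RPKM + 1) and Neil2 -0.09 with values raised. With single mice left out, old minus young ranged from -0.30 to 0.04 for Neil1 and -0.10 to 0.29 for Mpg. Old-OSKM minus old ranged from -0.13 to 0.00 for Ogg1, -0.18 to 0.13 for Ung, -0.17 to 0.13 for Nthl1, -0.24 to 0.16 for Neil1, -0.14 to 0.37 for Tdg and -0.19 to 0.04 for Mpg. Old-OSKM minus young ranged from -0.30 to 0.02 for Ung, -0.04 to 0.53 for Neil2 and -0.19 to 0.19 for Mpg. The cause was not tested. The depth behind single values is not known, and the listed levels of Mutyh, Neil2 and Neil3 are the lowest of the 10. No paired analysis was possible because the replicate numbers only name mice.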
